A study of Mus musculus with 8 samples.

Results

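The genes described here are 9 genes whose products were used to sort haematopoietic progenitors, or belong to the same receptor family as those products. Kit, Ly6a and Cd34 encode the sort antigens cKit, Sca1 and CD34. Fcgr2b and Fcgr3 encode the receptors that a CD16/32 stain detects, Fcgr1 and Fcgr4 are the other Fc gamma receptor genes, Fcer1g encodes their shared signalling chain, and Ptprc encodes CD45, which the labelled gates do not name. Members were chosen as the probes outside the array's controls whose RefSeq transcript belongs to these genes, which gave 10 probes (20 spots) for 9 genes of the 20145 named genes on the array. Cd34 had 2 probes and each other gene had 1.

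Messenger RNA was measured on 8 arrays of bone marrow cells from female mice aged 12 weeks. Mice lacking the atypical chemokine receptor ACKR1 (ACKR1-KO), backcrossed to C57Bl/6J and bred as heterozygotes, were compared with wild-type littermates, and no treatment was labelled. LSK cells were sorted as lineage-negative, positive for Sca1 and positive for cKit. GMP cells were sorted as lineage-negative, negative for Sca1, and positive for cKit, CD34 and CD16/32. Each of the 4 groups (wild-type LSK, deficient LSK, wild-type GMP and deficient GMP) held 2 arrays. The labels do not say whether the arrays of a group came from separate animals or from pools, and a p-value here reflects spread between samples that may be technical replicates.

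LSK cells include the haematopoietic stem cells and multipotent progenitors, and GMP cells are committed to granulocytes and monocytes. Fc gamma receptors bind the constant part of immunoglobulin G. The activating receptors encoded by Fcgr1, Fcgr3 and Fcgr4 signal through the Fc receptor gamma chain, encoded by Fcer1g, and the receptor encoded by Fcgr2b carries an inhibitory motif. In bone marrow these receptors mark cells that have entered the myeloid programme, and for that reason CD16/32 separates GMP from other progenitors.

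Each level below is the log2 processed signal of a probe minus the 75th percentile of the same array, so 0 is a fairly bright probe. A level compares arrays for 1 probe, and no probe was set against another. A probe counted as measured on an array where Feature Extraction called it well above background. A difference was called at a limma p-value under 0.05 after Benjamini-Hochberg adjustment over 28065 features, and all 9 genes were among the features tested. Fcgr1 entered only through deficient GMP, the group in which both arrays measured it, so its genotype differences are given as values with no test.

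Deficient LSK replicate 2 was a weak array, with 34.3% of spots well above background against 62.5% to 73.1% on the others. Deficient GMP replicate 1 stood apart from its group, with a Pearson r across features of 0.898 to its own replicate (the pair of wild-type GMP arrays had 0.976). Results are therefore given with and without these arrays where they rest on them. All deficient samples were hybridised in column 1 of the slide and all wild-type ones in column 2, and slide column and genotype cannot be told apart. The Ackr1 probe was not lower in deficient cells, with LSK levels of −0.66 and −1.05 (wild type) and −0.70 and −0.85 (deficient), and GMP levels of −0.50 and −0.45 (wild type) and −0.07 and −0.16 (deficient). In LSK the deficient arrays lay inside the wild-type range, and in GMP the deficient levels were the higher ones without overlap. The probe's place relative to the disrupted part of the gene is not given in the sources used here, so it does not check the labels.

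Genes known to mark the sorted cells separated LSK from GMP in both genotypes. Each marker sum here and below is the log2 of the levels added on a linear scale, so the brightest marker of a list weighs most. The sum of 8 LSK markers was 6.98 to 7.11 (wild type) and 5.90 to 6.60 (deficient) on LSK arrays. On GMP arrays it was 2.16 to 2.53 (wild type) and 3.44 to 4.63 (deficient). The 8 GMP markers summed to 7.68 to 7.88 (wild type) and 8.27 to 9.15 (deficient) on LSK arrays, and to 11.0 to 11.2 (wild type) and 10.9 to 11.5 (deficient) on GMP arrays.

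Among the genes of the receptor family, Fcer1g, Fcgr3, Fcgr4 and Fcgr2b lie on chromosome 1, as does Ackr1, with 57, 65, 66 and 67 protein-coding genes between each of them and Ackr1 in the order of the RefSeq table. Ptprc and Cd34 are on the same chromosome, with 264 and 163 protein-coding genes between, whereas Fcgr1 is on chromosome 3, Kit on chromosome 5 and Ly6a on chromosome 15. The 120 bases before the annotated start of the 5 receptor and chain genes are printed because the levels of these genes follow different patterns over the arrays, described below. The sequences are from RefSeq, build GRCm38.p6, 5′ to 3′ on the strand of the gene, for Fcgr3 (chr1:171059404-171059523, minus strand), Fcgr2b (chr1:170976072-170976191, minus), Fcgr4 (chr1:171018806-171018925, plus), Fcgr1 (chr3:96293970-96294089, minus) and Fcer1g (chr1:171234350-171234469, minus). Capitals mark TTCCTC, whose reverse complement is GAGGAA, a short purine-rich sequence of the kind that the myeloid factor PU.1 is known to bind.
Fcgr3: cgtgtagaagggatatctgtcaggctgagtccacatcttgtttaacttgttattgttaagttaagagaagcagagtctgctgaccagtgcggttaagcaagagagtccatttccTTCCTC
Fcgr2b: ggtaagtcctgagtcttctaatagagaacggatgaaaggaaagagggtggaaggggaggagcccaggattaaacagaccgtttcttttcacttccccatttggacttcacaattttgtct
Fcgr4: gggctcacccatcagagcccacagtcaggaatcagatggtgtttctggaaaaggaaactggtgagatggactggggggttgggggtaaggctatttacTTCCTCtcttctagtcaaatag
Fcgr1: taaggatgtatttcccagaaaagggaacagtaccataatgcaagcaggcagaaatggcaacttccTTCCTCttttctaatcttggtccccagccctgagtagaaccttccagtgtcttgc
Fcer1g: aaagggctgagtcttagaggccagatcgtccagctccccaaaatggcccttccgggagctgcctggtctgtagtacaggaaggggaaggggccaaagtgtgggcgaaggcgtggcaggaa
TTCCTC stood at bases 1 to 6 before the start of Fcgr3, 17 to 22 before that of Fcgr4 and 50 to 55 before that of Fcgr1. Neither Fcgr2b nor Fcer1g had these letters within 250 bases. Over that window and both strands, 5 of the 8 genes found in the promoter table held the motif (Kit and Ptprc were the others), as did 23.3% of 32851 promoters. The related letters GGAAGT, searched on both strands, were found in Ptprc, Fcgr1, Fcgr2b and Fcgr4, and in 19.7% of promoters, and in Fcgr4 they overlap the first motif. A GATA-type motif, AGATAA, was found in 0 of the 8 and in 9.99% of promoters. These are matches of letters and not binding sites.

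The first comparison set the transcripts against the gate, in wild-type cells. Fcgr3 and Fcer1g were higher in GMP than in LSK, Fcgr2b had a difference of similar size that missed the threshold, and Ly6a, whose protein is absent from GMP by the gate, had a transcript difference of 0.16 between the populations. Kit, Cd34 and Ptprc were not called. The gate itself selected on the proteins of Kit, Ly6a, Cd34, Fcgr2b and Fcgr3, so for these genes the comparison is a check of the sort and no separate finding. Of the 9 genes 2 were called, both higher in GMP, where 1.86% of all features were called (0.502% higher and 1.35% lower). At an unadjusted p under 0.05, 3 of the 9 passed (Fcgr2b, Fcgr3 and Fcer1g), beside 8.39% of features.

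**Figure D1:**
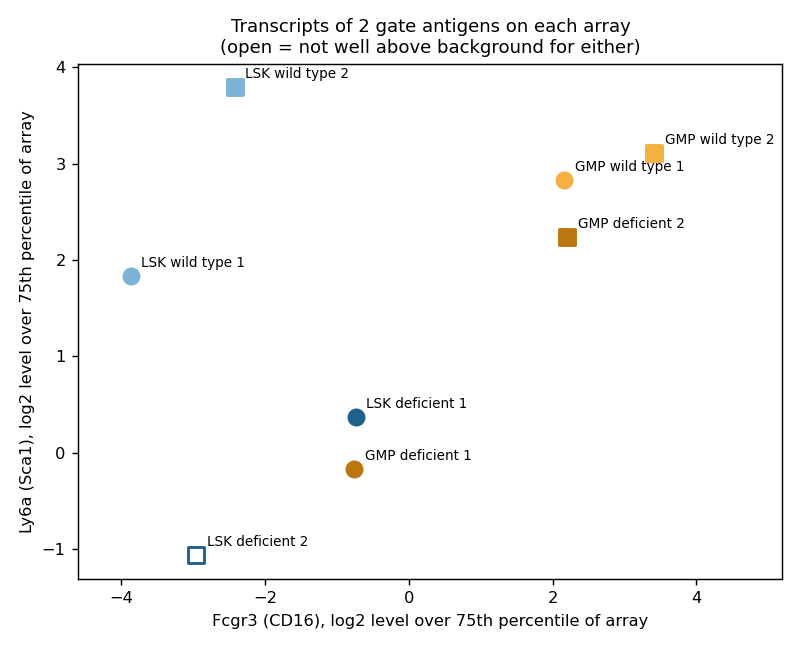
The log2 level of Fcgr3 (x axis) is plotted against that of Ly6a (y axis), both over the 75th percentile of the array, with 1 point for each of the 8 arrays, coloured by group. The wild-type LSK and GMP arrays separate along Fcgr3 and not along Ly6a, and deficient GMP replicate 1 lies beside deficient LSK replicate 1.

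Fcgr3 encodes the activating receptor CD16. Its level was −3.87 and −2.43 on the wild-type LSK arrays, against 2.16 and 3.41 on the wild-type GMP arrays. All 4 arrays measured it and the populations did not overlap. The difference was 5.94 (SE 1.12), or 61.2-fold, with a limma adjusted p = 0.0282.

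Fcer1g, the gamma chain through which the activating receptors signal, was not an antigen of the gate. It stood at 2.03 and 3.0 in wild-type LSK and at 6.2 and 6.15 in wild-type GMP. The GMP arrays agreed closely and lay above both LSK arrays. The difference was 3.66 (SE 0.703), or 12.6-fold, with a limma adjusted p = 0.0312. Both calls were lost when any 1 of the 4 wild-type arrays was left out, with adjusted p between 0.0766 and 0.272 for Fcgr3 and between 0.139 and 0.367 for Fcer1g.

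Fcgr2b encodes the inhibitory receptor, the other target of a CD16/32 stain. It had levels of −1.87 and −0.22 in wild-type LSK and 3.41 and 2.62 in wild-type GMP, with no overlap. The difference of 4.05 (SE 0.906) missed the threshold, with a limma adjusted p = 0.0626, and it passed in 7 of 22 alternative settings. Fcgr2b was printed as 10 spots on the array, whose SD was between 0.142 and 0.253 on every array except deficient LSK replicate 2, where it was 0.631.

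Fcgr4, an activating receptor of mature granulocytes and monocytes, also lay higher in wild-type GMP (−0.12 and −0.04) than in wild-type LSK (−1.43 and −1.54). Replicates were within 0.0783 (SD) of each other, but the difference of 1.40 (SE 0.692) was not called (limma adjusted p = 0.682). Fcgr1, the high-affinity receptor CD64, was near the floor in wild-type cells. Neither wild-type LSK array and 1 of 2 wild-type GMP arrays measured it, so no order of the populations is read from it.

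Monocyte and macrophage markers and mast cell and basophil markers moved with these Fc receptor differences. The 6 monocyte and macrophage markers on the array summed to between 3.04 and 3.32 in wild-type LSK and between 6.63 and 6.80 in wild-type GMP. The 6 mast cell and basophil markers summed to between 2.82 and 3.26 and between 5.59 and 5.67. The sums of other lists were higher in wild-type GMP too: T and NK (4.49 to 5.06 and 6.53 to 6.82), B (2.27 to 3.03 and 3.49 to 3.76), and stroma and endothelium markers (3.58 to 3.59 and 3.86 to 4.07). These 3 sums follow the brightest gene of each list (Nkg7, Cd79b and Kdr). The mean log2 level of the T and NK list was lower in wild-type GMP (−2.60 and −2.50) than in wild-type LSK (−1.41 and −1.53). So was that of the stroma and endothelium list (−3.27 and −2.83 against −1.93 and −1.67). That of the B list overlapped between the populations. Megakaryocyte markers were lower (2.54 to 3.02 and 0.46 to 0.98). Between 5 and 6 of the monocyte and macrophage markers were well above background in both wild-type groups, and their part in the Fc receptor differences was not tested. In sorted cells measured in bulk, fewer cells of a type and less RNA per cell cannot be told apart.

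Ly6a encodes Sca1, an antigen present on LSK and used to gate it out of GMP. Its level was 1.83 and 3.79 in wild-type LSK and 2.83 and 3.11 in wild-type GMP. The GMP arrays lay inside the range of the LSK arrays, and both measured the transcript well above background. The difference was 0.16 (95% interval −2.04 to 2.35, limma adjusted p = 1). The wild-type LSK arrays themselves had an SD of 1.39, and the sign turned under quantile normalization (−0.23) and without wild-type LSK replicate 1 (−0.82). The letters of the Ly6a probe were not used here, and near-identical copies in the Ly6 family may share its signal.

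Kit encodes the stem cell factor receptor, an antigen on which both gates are positive. Its level was 4.31 and 5.09 in wild-type LSK and 4.26 and 3.87 in wild-type GMP, a difference of −0.64 (SE 0.849, limma adjusted p = 1). The GMP arrays lay just below the LSK arrays. Ptprc, a phosphatase carried by nearly all leukocytes, was at 1.17 and 2.40 in LSK and at 1.56 and 1.62 in GMP. Its GMP arrays lay between its LSK arrays.

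Cd34 encodes a sialomucin that the GMP gate requires and the LSK gate does not use. The tested probe was bright everywhere, at 7.56 and 7.72 in wild-type LSK and 6.79 and 6.39 in wild-type GMP. Both GMP arrays were below both LSK arrays, and the difference of −1.05 (SE 0.675) was not called (limma adjusted p = 0.871). The other Cd34 probe gave 0.44 and 0.64 in LSK and −1.08 and −0.12 in GMP, a difference of −1.14 (SE 0.757, limma adjusted p = 0.911). The probes gave the same direction in wild-type cells.

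Counted by arrays alone, 4 of the 9 genes lay higher in wild-type GMP without overlap (Fcgr2b, Fcgr3, Fcgr4 and Fcer1g), beside 28.3% of all features, and 2 lay lower (Kit and Cd34), beside 20.2%.

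**Figure D2:**
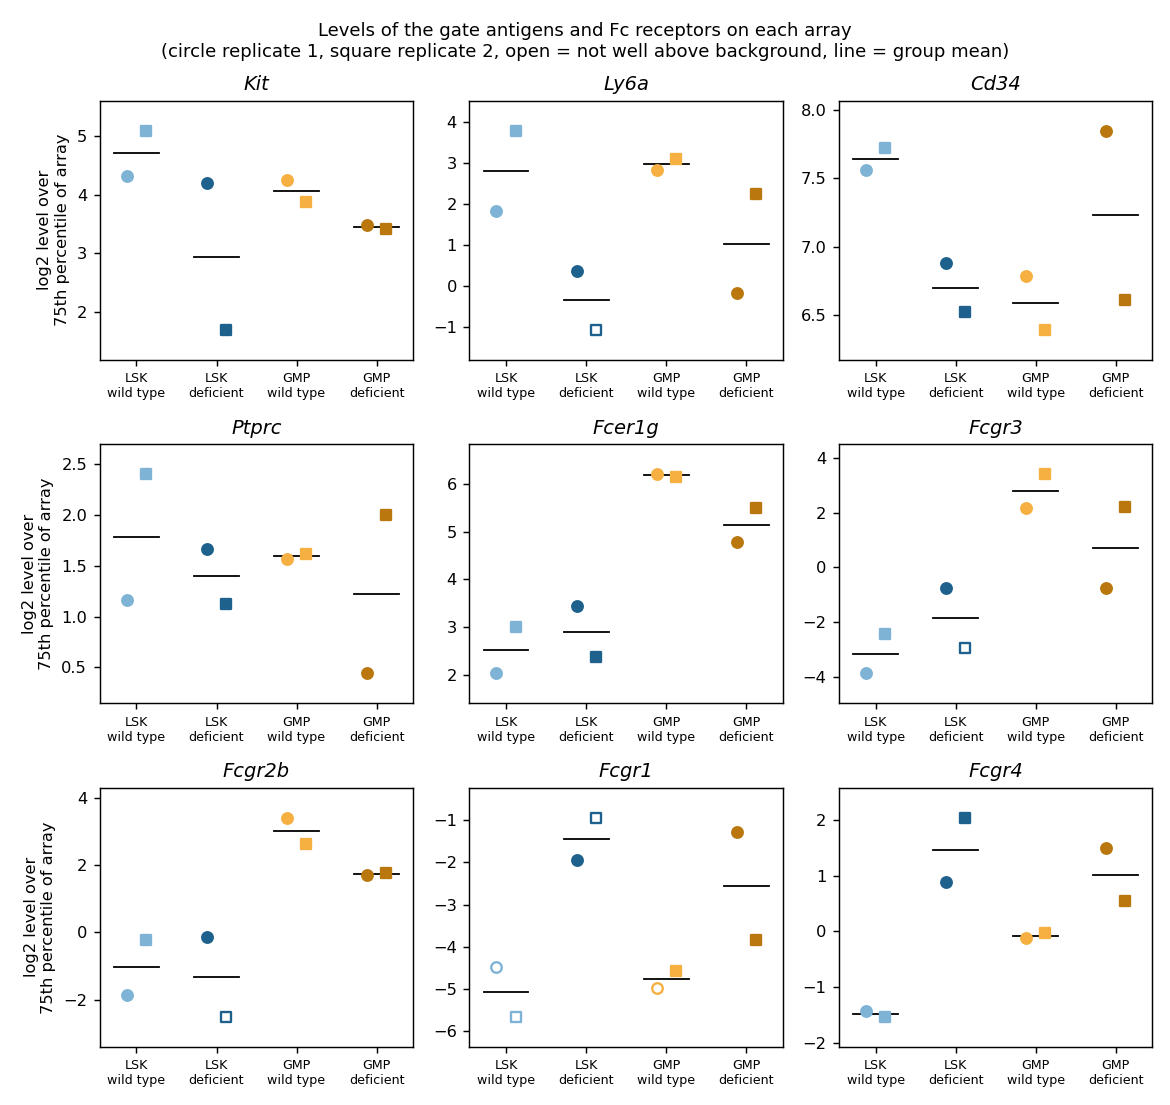
Each panel gives the log2 level of 1 gene over the 75th percentile of the array (y axis, scaled per gene) for the 4 groups, with both arrays as points, the group mean as a line and open symbols where the probe was not well above background. Fcer1g and Fcgr2b separate the populations in both genotypes, and Fcgr3 separates them in wild-type cells only. Within each population, Fcgr4 is higher in deficient than in wild-type cells, on all 4 deficient arrays. The Fcgr1 values are also higher there, but some of its readings are open symbols in both populations.

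The same comparison in deficient cells called 0 of the 9 genes, where 0% of all features were called. At an unadjusted p under 0.05, 3 of the 9 genes passed (Fcgr2b, Fcgr3 and Fcer1g), beside 16.7% of all features. The population difference of Fcgr2b was 3.07 (SE 0.906, limma adjusted p = 0.178), that of Fcgr3 was 2.57 (SE 1.12, limma adjusted p = 0.288) and that of Fcer1g was 2.23 (SE 0.703, limma adjusted p = 0.193). Each was smaller than in wild-type cells, but the test of that difference called 0 of the 9 genes, with 0% of features called. At an unadjusted p under 0.05 it passed 0 of the 9, beside 2.48% of features. The change in population difference was −0.98 (SE 1.28) for Fcgr2b and −1.43 (SE 0.995) for Fcer1g.

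For Fcgr3, deficient GMP had levels of −0.76 and 2.20, and deficient LSK had −0.74 and −2.96, the last not well above background. Deficient GMP replicate 1 was therefore at the level of deficient LSK replicate 1, and the groups met. The genotype effect on Fcgr3 differed between GMP and LSK by −3.36 (SE 1.58, unadjusted p = 0.0602, limma adjusted p = 0.961), by −1.88 without deficient GMP replicate 1 and by −4.47 without the weak array.

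Fcgr2b and Fcer1g kept the populations apart in deficient cells as well. Fcgr2b was at −0.14 and −2.51 in deficient LSK, the latter not well above background, and at 1.72 and 1.77 in deficient GMP. Fcer1g was at 3.44 and 2.37 in deficient LSK and at 4.78 and 5.49 in deficient GMP. These 2 of the 9 genes lay higher in GMP without overlap in deficient cells, beside 18.4% of all features, and 0 lay lower, beside 18.5%. The same 2 did so in both genotypes, beside 12.3%. Without deficient LSK replicate 1 both were called, Fcgr2b at 4.26 (limma adjusted p = 0.033) and Fcer1g at 2.76 (limma adjusted p = 0.0424), a setting in which only the weak array represents deficient LSK, the other groups supply the spread and 15.1% of all features were called.

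Ly6a in deficient cells was at 0.37 and −1.07 in LSK, the latter not well above background, and at −0.17 and 2.24 in GMP. The level in GMP again overlapped that in LSK, with a difference of 1.39 (95% interval −0.81 to 3.58, limma adjusted p = 0.491).

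The comparison of genotypes asked whether loss of ACKR1 went with other levels of the sort antigens and receptors in each population. In LSK, 0 of the 9 genes were called, where 0.239% of all features were called, and in GMP 0 of the 9, where 0.146% were. Of the 8 genes other than Fcgr1, 2 passed an unadjusted p under 0.05 in LSK (Fcgr4 and Ly6a), beside 8.83% of features, and 0 in GMP, beside 4.82%. The activating receptor gene Fcgr4 lay higher in deficient cells of both populations and Ly6a and Kit lay lower, each without overlap between the genotypes. Fcgr1 values also lay higher, with readings not well above background in each population.

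**Figure D3:**
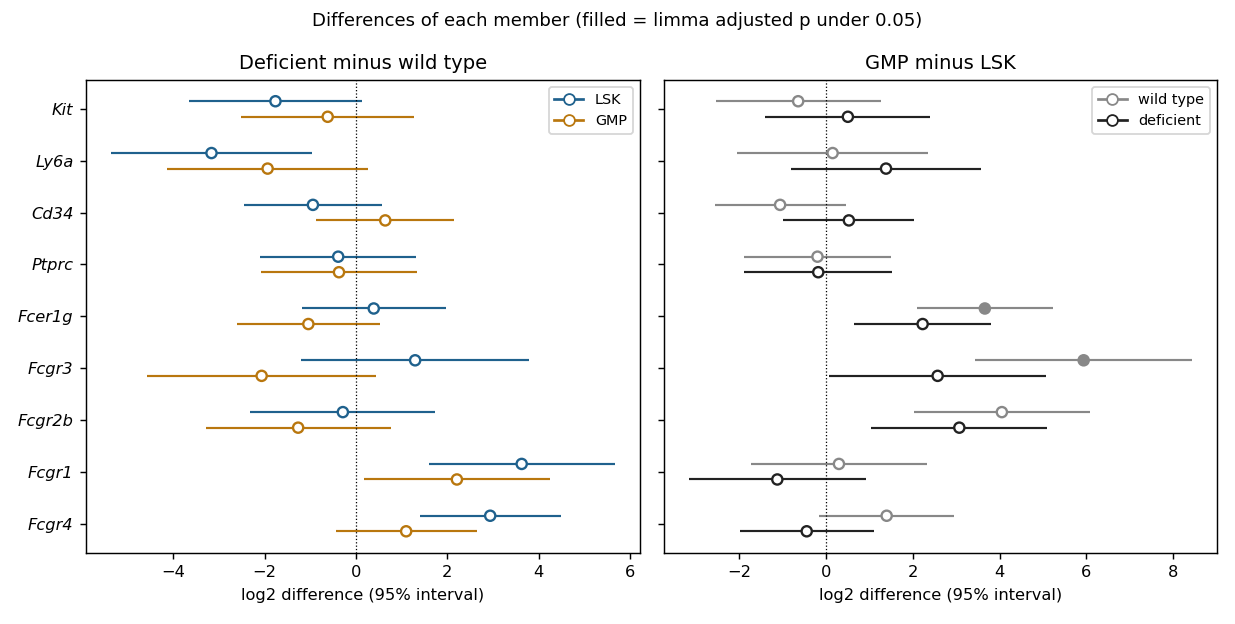
Points give the log2 difference of each gene and bars its 95% interval, for deficient minus wild type in LSK and GMP (left) and for GMP minus LSK in wild-type and deficient cells (right), with filled points where the limma adjusted p was under 0.05. Fcgr3 and Fcer1g between the wild-type populations are the filled points, and the points of Fcgr4 lie right of 0 in both populations in the left panel. The bars of Fcgr1 in that panel are not read as a test, because it entered only through deficient GMP.

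Fcgr4 had levels of −1.43 and −1.54 in wild-type LSK and 0.88 and 2.04 in deficient LSK. All 4 arrays measured it, and the wild-type arrays were close together while the deficient arrays were higher and further apart. The difference was 2.94 (SE 0.692), or 7.68-fold, with an unadjusted p = 0.00179 and a limma adjusted p = 0.256. It was 2.36 without the weak array (limma adjusted p = 0.715), and 3.52 without deficient LSK replicate 1 (limma adjusted p = 0.0406). In the latter setting only the weak array represents deficient LSK, the other groups supply the spread, and 10% of all features were called.

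In GMP, Fcgr4 was at −0.12 and −0.04 in wild-type and at 1.5 and 0.54 in deficient cells. The genotypes again did not overlap, and the difference of 1.10 (SE 0.692) had a limma adjusted p = 0.955. Without deficient GMP replicate 1 it was 0.62. The order of the groups for Fcgr4, from low to high, was wild-type LSK, wild-type GMP, deficient GMP and deficient LSK, and the deficient groups overlapped. The difference between the genotype effects was −1.84 (SE 0.979, limma adjusted p = 0.961).

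Fcgr1 was at −4.48 and −5.66 in wild-type LSK, both not well above background, and at −1.94 and −0.94 in deficient LSK, the latter also not well above background on the weak array. The group means differed by 3.63, a value that includes 3 readings not well above background. The difference was 3.13 without the weak array and 1.76 under normexp, and no fold is given. In GMP, Fcgr1 was at −4.98 and −4.57 in wild-type cells, the former not well above background, and at −1.28 and −3.84 in deficient cells. The means differed by 2.21, and by 0.93 without deficient GMP replicate 1.

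Averaged over the populations, 0 of the 9 genes were called, where 0.602% of all features were (0.595% higher and 0.00713% lower). Ly6a had −2.55 (SE 0.694, unadjusted p = 0.0045, limma adjusted p = 0.271), Fcgr4 had 2.02 (SE 0.489, unadjusted p = 0.00215, limma adjusted p = 0.198) and Kit had −1.19 (SE 0.600, unadjusted p = 0.0764, limma adjusted p = 0.445). At an unadjusted p under 0.05, 2 of the 8 genes other than Fcgr1 passed, beside 12.2% of features. The averaged difference of Fcgr1 was 2.92. Without the weak LSK array and deficient GMP replicate 1 the averages were 2.03 for Fcgr1, −1.59 for Ly6a, 1.49 for Fcgr4 and −0.59 for Kit.

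Ly6a was at 1.83 and 3.79 in wild-type LSK and at 0.37 and −1.07 in deficient LSK, the latter not well above background. Both deficient arrays lay below both wild-type arrays. The difference was −3.16 (SE 0.982, unadjusted p = 0.00944, limma adjusted p = 0.48), and −2.45 without the weak array. In GMP, deficient arrays were at −0.17 and 2.24 against 2.83 and 3.11, a difference of −1.93 (SE 0.982, limma adjusted p = 0.955) that was −0.73 without deficient GMP replicate 1. The sign held in all 22 alternative settings in each population.

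Kit was at 4.31 and 5.09 in wild-type LSK and at 4.19 and 1.69 in deficient LSK. The low value was that of the weak array, and the other deficient array was close to the lower wild-type array. The difference of −1.76 (SE 0.849, limma adjusted p = 0.55) was −0.51 without the weak array, and −3.01 with that array alone in its group (limma adjusted p = 0.0414, with 10% of all features called and the spread taken from the other groups). In GMP, Kit was at 4.26 and 3.87 in wild-type and at 3.49 and 3.41 in deficient cells, a difference of −0.62 (SE 0.849, limma adjusted p = 0.997).

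Fcgr3, Fcgr2b and Fcer1g had no genotype difference past the threshold in either population. In LSK the differences were 1.3 (SE 1.12) for Fcgr3, −0.29 (SE 0.906) for Fcgr2b and 0.39 (SE 0.703) for Fcer1g, with limma adjusted p between 0.634 and 0.886. The Fcgr3 value was 2.41 without the weak array, which did not measure it, and 0.14 under quantile normalization. In GMP they were −2.06 (SE 1.12), −1.26 (SE 0.906) and −1.04 (SE 0.703), with limma adjusted p of 0.955 and 0.956. Both deficient GMP arrays lay below both wild-type GMP arrays for Fcgr2b and Fcer1g, and for Fcgr3 deficient GMP replicate 2 (2.20) lay just above wild-type GMP replicate 1 (2.16). Without deficient GMP replicate 1 the Fcgr3 difference was −0.58.

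The Cd34 probes disagreed in deficient GMP. The tested probe had its highest level of all arrays on deficient GMP replicate 1 (7.85) and 6.61 on replicate 2, and the other probe had its lowest level on replicate 1 (−1.46) and 0.18 on replicate 2. Over the 8 arrays the probes had a Pearson r of 0.00485. The genotype difference was 0.64 (SE 0.675) at the tested probe and −0.04 (SE 0.757) at the other in GMP, and −0.94 and −0.77 in LSK, and no direction is given for Cd34 in GMP. Ptprc differed by −0.39 in LSK and −0.37 in GMP (SE 0.762 each), and its genotypes overlapped in both populations.

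Counted by arrays alone, Fcgr4 lay higher in deficient LSK without overlap, beside 16.4% of features, and 3 genes lower (Kit, Ly6a and Cd34), beside 21.1%. In GMP Fcgr4 lay higher, beside 20%, and 4 genes lower (Kit, Ly6a, Fcgr2b and Fcer1g), beside 19.5%. In both populations Fcgr4 lay higher, beside 6%, and 2 genes lower (Kit and Ly6a), beside 7.34%. Fcgr1 values also lay higher without overlap, but that gene is not counted here, since it entered only through deficient GMP. Both its wild-type LSK readings and that of the weak array were not well above background. The median difference of the 9 genes was −0.29 in LSK and −0.62 in GMP, against 0.11 and 0.16 for all features. Without the weak array the LSK median was 0.90, against −0.08 for all features, so its sign rests on that array.

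Neutrophil and red cell markers were higher in deficient cells and moved with Fcgr1 and Fcgr4. On LSK arrays the 8 neutrophil markers summed to 1.12 to 3.26 (wild type) and 10.4 to 11.7 (deficient), and on GMP arrays to 2.30 to 3.76 (wild type) and 10.2 to 11.7 (deficient). In LSK 8 of 8 passed the test and in GMP 6, beside 0.239% and 0.146% of all features. Without the weak array 0 passed in LSK, 4 in GMP and 8 averaged over the populations, and without deficient GMP replicate 1 the counts were 8, 2 and 7. The differences stayed large: the LSK median of the list was 8.82 with all arrays and 8.31 without the weak array, where 8 of 8 passed an unadjusted p under 0.05 and limma called 0% of all features. All 8 were well above background on every deficient array, against 5 to 7 on the wild-type arrays. The 7 red cell markers summed to 2.88 to 5.45 (wild type) and 10.4 to 13.0 (deficient) on LSK arrays and to 1.94 to 3.26 (wild type) and 10.1 to 11.4 (deficient) on GMP arrays, and 5 of the 7 passed in each population. Without the weak array 0 of the 7 passed in LSK and 4 in GMP, and without deficient GMP replicate 1, 4 and 0. Their LSK median was 6.98 and, without the weak array, 7.07, and their GMP median was 7.97 and, without deficient GMP replicate 1, 7.26, with 7 of 7 at an unadjusted p under 0.05 in both settings. A wild-type group admitted 6 of the 8 and 3 of the 7 markers to the test, and the others entered only through deficient groups. Of the 6 neutrophil markers so admitted, 6 were called in LSK and 4 in GMP. Of the 3 red cell markers so admitted, 2 were called in each population. The part of these markers in the levels of Fcgr1 and Fcgr4, which mature granulocytes and monocytes are known to carry, was not tested. Of 5 tested monocyte and macrophage markers limma called 0 between the genotypes (2 in LSK and 1 in GMP at an unadjusted p under 0.05). In LSK 4 of the 5 were higher and 1 lower in deficient cells, with a median of 1.40 against 0.11 for all features. Without the weak array that median was 1.49 against −0.08. In GMP 2 were higher and 3 lower, with a median of −0.52 against 0.16. The 6 monocyte and macrophage markers on the array summed to 2.97 to 3.99 in deficient LSK and 6.17 to 6.54 in deficient GMP. The GMP sums were just below the wild-type range.

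**Figure D4:**
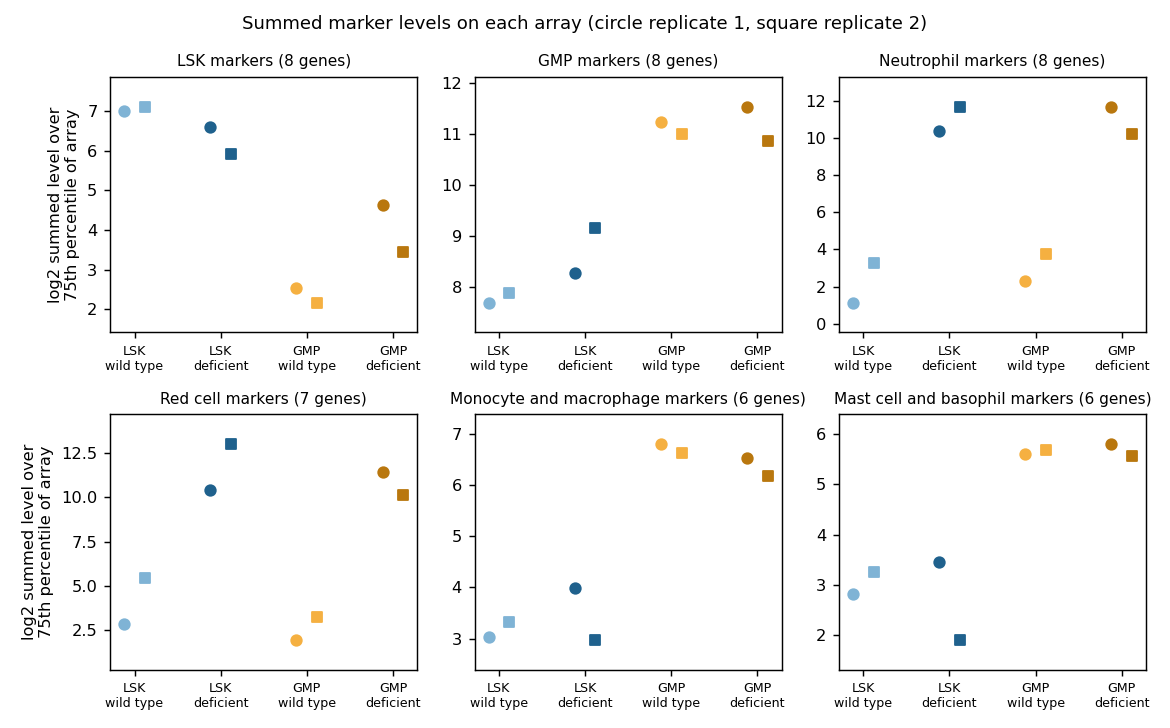
Each panel gives the log2 of the summed level of a marker list over the 75th percentile of the array (y axis, scaled per panel) on the 8 arrays. Neutrophil and red cell markers are above 10 on all 4 deficient arrays and below 6 on all 4 wild-type arrays, and the LSK, GMP, monocyte and macrophage, and mast cell and basophil panels separate the populations.

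Correlations of level between the genes over the 8 arrays are given as a description, since the arrays share a slide and the weak array enters every value. Fcer1g had a Pearson r of 0.964 with Fcgr3 and 0.970 with Fcgr2b, and Fcgr2b had 0.898 with Fcgr3. Over the 7 arrays without the weak array these were 0.958, 0.982 and 0.900. Fcgr1 had 0.900 with Fcgr4 and −0.974 with Ly6a, and 0.853 and −0.964 over 7 arrays, with Fcgr1 well above background on 4 arrays. Fcgr3 had 0.120 and Fcgr2b −0.02 with Fcgr4, but 0.453 and 0.485 over 7 arrays. With Ly6a, r was 0.473 for Fcgr2b, 0.406 for Fcgr3 and 0.388 for Fcer1g, and 0.161, 0.225 and 0.163 over 7 arrays.

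The genes most like each member in level over the 8 arrays were taken from 14438 features measured on at least 6 arrays. For Fcgr3 they were Dstn (r = 0.978), Nlrc4 (0.974) and Dok3 (0.972), and Dstn was also first over 7 arrays (0.990). For Fcer1g they were Hvcn1 (0.989), Gria3 (0.988) and Aoah (0.987), and for Fcgr2b they included Xpnpep1 (0.990) and Flna (0.988). None of these genes of Fcer1g and Fcgr2b was among the first 3 over 7 arrays. For Fcgr4 they were Jaml (0.981), Pi16 (0.976) and C5ar2 (0.969), of which Jaml remained over 7 arrays (0.985) beside Ccl6 (0.990) and Mcemp1 (0.987). For Ly6a they were Ifitm3 (0.994), Ogfr (0.988) and Cript (0.985), and Ifitm3 and Ogfr remained over 7 arrays (0.990 each). Fcgr1 was measured on too few arrays to enter. For Kit they were Def6 (0.996), Ssh3 (0.992) and Rela (0.985), for Cd34 Acot1 (0.988), Zbtb9 (0.982) and Tspyl3 (0.980), and for Ptprc Smad1 (0.950), Armc9 (0.941) and Zfp938 (0.940).

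Genes of Fc gamma receptor signalling were compared next. Of 32 listed kinases, adaptors and phosphatases, 31 were tested. Between the wild-type populations 0 rose and 2 fell in GMP: Lat, the adaptor of T cells and mast cells, by 3.39 (limma adjusted p = 0.0281), and Blnk, the adaptor of the B cell receptor, by 4.45 (limma adjusted p = 0.0415). The median of the list was 0.25, against 0.01 for all features. Tyrobp, which encodes the adaptor DAP12 and works beside the gamma chain, was at 2.31 and 3.55 in wild-type LSK and 6.76 and 6.64 in wild-type GMP. Its difference of 3.77 (SE 0.814) had a limma adjusted p = 0.0527, and its r with Fcer1g over the 8 arrays was 0.982. Without the weak array Tyrobp and Dok2 were called beside Lat, and Blnk was not.

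Between the genotypes, Fgr, a Src-family kinase of myeloid cells, was the only gene of the 31 that was called. It was at −6.25 and −5.41 in wild-type GMP, both not well above background, and at −0.05 and −1.12 in deficient GMP. Deficient GMP was the only group in which both arrays measured it, and it entered the test through that group, so its calls in GMP (limma adjusted p = 0.0336) and averaged over the populations (limma adjusted p = 0.00419) are given as a description. In LSK limma called 0 of the 31 (4 at an unadjusted p under 0.05), with Fgr at 3.79 (limma adjusted p = 0.116) and Cblb, a ubiquitin ligase, at 4.99 (limma adjusted p = 0.298), and the median was −0.46 against 0.11 for all features. Without the weak array that median was 0.10 against −0.08, with 18 higher and 13 lower.

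Among 14 other immunoglobulin Fc receptor and Fc receptor-like genes, 12 were tested. Fcer1a, the chain of the mast cell and basophil receptor that binds immunoglobulin E and signals through Fcer1g, was at −6.00 and −7.92 in wild-type LSK, both not well above background, and at −0.52 and −1.79 in wild-type GMP, which is at least 21.1-fold higher (limma adjusted p = 0.0214). Such a bound sets the brighter mean against the higher of the dim probe's own signal and the lowest signal among probes well above background. Fcrla, an Fc receptor-like gene of B cells, was at least 3.61-fold lower in wild-type GMP than in wild-type LSK (limma adjusted p = 0.0233). It was at least 6.23-fold higher in deficient than in wild-type GMP (limma adjusted p = 0.0427), a call lost without the weak array and without deficient GMP replicate 1. Averaged over the populations, Fcer1a (limma adjusted p = 0.0294) and Fcrla (limma adjusted p = 0.0361) were called higher in deficient cells, Fcrla also without the weak array, and neither without deficient GMP replicate 1. In LSK limma called 0 of the 12 between the genotypes (1 at an unadjusted p under 0.05), with Fcer1a at an adjusted p of 0.208 and Fcrlb at 1.27 (limma adjusted p = 0.558).

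Of 24 genes of Kit ligand and Kit signalling 23 were tested, and limma called 0 in each comparison. At an unadjusted p under 0.05 there were 2 in LSK, 1 in GMP and 3 between the wild-type populations. In LSK 7 lay higher and 16 lower in deficient cells, with a median of −0.61 against 0.11 for all features, and −0.07 against −0.08 without the weak array. The smallest p in LSK belonged to Cblb, given above, and to Gab2, an adaptor, at 3.48 (limma adjusted p = 0.482). In both the weak array was the highest. Gab2 was at −5.82 and −5.53 in wild-type LSK and at −4.06 and −0.34 (weak array) in deficient LSK, measured on 1 array of each. Cblb was at −0.48 and −2.55 in wild-type LSK and at 1.78 and 5.16 (weak array) in deficient LSK. In GMP the smallest belonged to Tal1, a blood cell transcription factor, at 1.80, and to Ptpn6, a phosphatase that restrains Kit, at −2.06 (limma adjusted p = 0.955 each). Both lean on deficient GMP replicate 1. Tal1 was at 2.20 and 1.72 in wild-type GMP and at 4.88 (replicate 1) and 2.64 in deficient GMP. Ptpn6 was at 4.97 and 4.67 in wild-type GMP and at 1.52 (replicate 1) and 3.98 in deficient GMP. Between the wild-type populations the smallest p belonged to Tal1 at −2.06 (limma adjusted p = 0.455) and Fyn, a Src-family kinase, at −1.99 (limma adjusted p = 0.551).

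The Ly6 family, to which Sca1 belongs, had 16 tested genes of 20 listed, and 1 was called. Ly6c1, whose product marks myeloid and endothelial cells, was at 4.17 and 5.34 in wild-type LSK and at 8.76 and 8.53 in wild-type GMP, a difference of 3.89 (SE 0.670, limma adjusted p = 0.0187). A near-identical copy may share its probe. Between the genotypes limma called 0 (1 in LSK and 2 in GMP at an unadjusted p under 0.05). Ly6e was at 3.97 and 6.18 (wild type) and 3.85 and 0.78 (deficient) on LSK arrays and at 7.80 and 7.68 (wild type) and 3.60 and 6.31 (deficient) on GMP arrays, with differences of −2.75 (limma adjusted p = 0.55) and −2.78 (limma adjusted p = 0.955). Its r with Ly6a was 0.891 over 8 arrays and 0.812 over 7. The other genes with the smallest p were Ly6h in LSK, at 1.80 (limma adjusted p = 0.55), and Ly6d in GMP, at 3.53 (limma adjusted p = 0.159).

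Lineage antigens, which the sort is meant to remove, were compared because both gates are lineage-negative. The labels do not name the antibodies, so the list of 13 commonly stained antigens is background, and 10 were tested. Il7r, the interleukin 7 receptor of lymphoid progenitors, was at least 10-fold lower in wild-type GMP than in wild-type LSK (limma adjusted p = 0.00994). Itgam, which encodes CD11b of granulocytes and monocytes, was not called, at 1.10 in LSK (limma adjusted p = 0.608).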

How the data were processed

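Per the labels, RNA was extracted with Trizol and labelled with Cy3 by low-input amplification. Per the file headers, spot values came from Agilent Feature Extraction 10.7.3.1 (design annotated on mm9), and the deposited processed signal is a background-subtracted intensity on a linear scale. The authors' deposited table holds log2 values centred per probe, used as an alternative. It matched the scanner values at r of at least 0.99969 per array, with column medians from −0.26 to 1.24.

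Control and outlier spots were left out, log2 processed signal minus the 75th percentile of the array was taken, and spots of a probe were averaged. Probes well above background on each array of 1 or more groups were kept (39082 of 55681), with the brightest probe for each gene. Accessions named 26582 probes through RefSeq (GRCm38.p6). Where a gene had 2 promoter entries the first was used, and 8 of the 9 genes had an entry. limma 3.58.1 in R 4.3.3 fitted 4 group means over 8 arrays (4 residual and 5.75 prior degrees of freedom). The data.table package (1.17.8) read the files, and Python 3.11.15 with matplotlib 3.10.9 made the figures. In simulated data of 28065 features, 70% of genes changed by a log2 of 4 in LSK were recovered, 0% at 2 and 100% at 8. The simulation gave a gene the same spread on every array and held no weak array, so these rates need not hold for the real LSK comparison. The number of arrays limits the precision.

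The members, lists and rules were chosen with earlier results of these data known. Each member and each gene called in a list, up to 4 per list and comparison, is named, otherwise the 2 with the smallest p in the genotype comparisons and between wild-type populations. The normexp alternative used median signals, because mean signals were not in the columns used. LSK arrays lay in slide rows 1 and 3 and GMP arrays in rows 2 and 4, so slide row and population cannot be told apart. Within a population, same-numbered arrays share a slide row. Their deviations correlated at −0.34 in LSK and 0.26 in GMP, so the replicate numbers were not taken as pairs. Results of some genes that the naming rule selects are not reported here.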

Additional observations from a re-analysis of the deposited data

How the results depend on the processing

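No genotype comparison of LSK or GMP and no population comparison in deficient cells called any of the 9 genes, except when deficient LSK replicate 1 was left out: 2 were then called in LSK (Kit and Fcgr4) and 2 between deficient populations (Fcgr2b and Fcer1g), so leaving out single arrays gave 0 to 2 in each. Averaged over the populations, leave-one-out settings gave 0 to 1 (Fcgr1, without deficient GMP replicate 2, a gene that entered the test only through deficient GMP), and a replicate block with the numbers crossed in LSK, chosen after seeing the data, gave 2 (Ly6a and Fcgr1). Between wild-type populations the count of 2 became 0 under quantile normalization, 0 under median scaling and 0 with no filter on dim probes, and leaving out single arrays gave 0 to 3. The replicate block left it at 2, changed no other count of called genes, and the slide row as a random block also gave 2. The difference between genotype effects called 0 in every setting run. The features called between wild-type populations fell from 521 to 84 under quantile normalization, 200 under median scaling, 213 with no filter, and 17 to 87 without 1 wild-type array, and those called between genotypes in LSK went from 67 to 27, 2 and 6 in the first 3 of these settings, to 0 without the weak array and to 2807 without deficient LSK replicate 1.

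The signs below turned in single settings and belong to differences that were not called; ranges over single left-out arrays are given. In LSK, Ptprc was −1.01 to 0.23, the latter without wild-type LSK replicate 2. Fcgr2b there was −1.47 to 0.90 over left-out arrays, 0.54 under normexp, 0.54 without wild-type LSK replicate 2, and 0.90 without the weak array, alone or with deficient GMP replicate 1. Fcer1g in LSK was −0.14 to 0.93 over left-out arrays, −0.36 under normexp, −0.18 under median scaling, −0.09 without wild-type LSK replicate 1 and −0.14 without deficient LSK replicate 1. In GMP, Ptprc was −1.15 to 0.41, the latter without deficient GMP replicate 1, alone or with the weak array. Between wild-type populations, Ly6a was −0.23 under quantile normalization and −0.82 to 1.14 over left-out arrays, the lowest without wild-type LSK replicate 1, Ptprc was 0.14 under median scaling and −0.81 to 0.43 over left-out arrays, the highest without wild-type LSK replicate 2, and Fcgr1 was −0.29 to 0.89, the lowest without that array. The causes were not tested. The median of all features between genotypes in LSK was 0.11, but −0.25 under quantile normalization and −0.46 under median scaling. Fcgr1 could not be tested with a filter of 6 arrays, and the averaged and interaction fits were not run on only the arrays compared. Signal over background limits Fcgr1 and, on the weak array, Ly6a, Fcgr2b and Fcgr3.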
